A study of Mus musculus with 4 samples.

Results

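The 8 genes described here belong to the Bcl2 family, whose proteins decide whether a mitochondrion releases the factors that start apoptosis. They were taken by symbol from the gene list of the deposited matrices, where they are 8 of 31053 gene rows, each with 1 row. They are Bcl2, Bcl2l1 (the gene of Bcl-xL), Mcl1, Bax, Bak1, Bcl2l11 (the gene of Bim), Pmaip1 (the gene of Noxa) and Bbc3 (the gene of Puma). The study grew mouse bone marrow progenitors into early T-cell progenitors over OP9-Dll1, stromal cells that present a Notch ligand, with IL-7 and Flt3-ligand at 10 ng/ml. It deposited 2 pooled single-cell experiments, each as 1 mRNA library with a matching table of 8 hashtags, the antibody-borne DNA barcodes that mark which culture a cell came from. The labels give a culture time of 4 to 5 days in experiment 1 and of 4 to 8 days in experiment 2.

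All donor mice carried a Bcl2 transgene, controls included. The overexpression arm used B6.Bcl2 transgenic mice, aged 8 to 10 weeks, whose cells received MSCV-Runx1-mCherry or MSCV-empty-mCherry on day 2 and were harvested on day 4 or 6. The knockout arm used B6.Cas9;Bcl2 transgenic mice, whose cells received E42-gRunx1-humanNGFR with E42-gRunx3-mTurquoise, or control guides against luciferase in the same vectors, on day 2. Each of Runx1 and Runx3 was targeted with 3 guide pairs, and these cells were harvested on day 5 or 8. Live cells negative for lineage markers and positive for CD45 and the vector markers were sorted before pooling. The labels state neither the promoter of the Bcl2 transgene nor the species of its coding sequence. The counts assigned to Bcl2 do not separate transcripts of the transgene from those of the mouse gene.

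Bcl2 family proteins fall into 3 groups by role. Bcl2, Bcl-xL and Mcl1 hold the pore-forming proteins Bax and Bak in check, and the BH3-only proteins Bim, Noxa and Puma either occupy the survival proteins or activate the pore formers. In early lymphocytes, signals through the IL-7 receptor are known to sustain Bcl2 and Mcl1 and to hold Bim down, and a Bcl2 transgene is a common means of keeping such cells alive when those signals are weak.

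RefSeq promoter windows (GRCm38.p6, 250 bases before to 50 bases after a gene start) were used for 7 of the 8 genes, 12 windows in all. No window of Pmaip1 was searched. The study perturbed Runx factors, and the forkhead factor FOXO3 is a known activator of the Bim and Puma genes, so the windows were searched on both strands for a RUNX core (TGTGGT) and a FOXO motif (GTAAACA). No match of one motif overlapped a match of the other. The following 30-base stretches are shown because they are the matches among these 7 genes, with the motif in capitals and the strand that of the gene.
Bak1, RUNX core, chr17:27028831-27028860, minus strand: tttgttgttgtcTGTGGTttgcttttcact
Bcl2l11, FOXO motif, chr2:128125800-128125829, plus strand: aagacactaggGTAAACAcgccggggtggg
Bbc3, FOXO motif on the opposite strand, chr7:16310083-16310112, plus strand: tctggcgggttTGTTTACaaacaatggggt
The RUNX core lay 221 bases before the start of Bak1, and 16.8% of all 32851 windows held that motif. The FOXO motif lay 227 bases before one listed start of Bcl2l11 and 167 bases before one listed start of Bbc3, and 3.65% of all windows held it. A match is a run of letters in these windows and not a measured binding site.

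A cell was used if it had 500 or more genes and less than 10% of its UMIs from mitochondrial genes, and it was given a hashtag when its top tag had at least 50 counts and at least 3 times the second. This left 8797 cells in experiment 1 (691 to 1291 a hashtag, 14502385 to 38067298 UMIs a hashtag) and 8335 in experiment 2 (855 to 1312 cells, 22272716 to 42684236 UMIs). The median depth was 24753 UMIs a cell in experiment 1 and 26338 in experiment 2. Ptprc, the gene of CD45, was detected in 95.4% and 92.9% of these cells and Kit in 71.8% and 51.9%, while Cd4 stood at 0.0769 and 0.0602 CPM (a gene's UMIs per 1000000 UMIs of all genes). Cd8a stood at 0.335 CPM in experiment 1 and 10.35 in experiment 2, where it reached 42.2 CPM in a hashtag and was detected in 3.01% of cells. The labels do not say which hashtag column is which culture. Hashtags are therefore numbered by column order and treated as 8 cultures of unknown condition, with no replicate of a known group, no test between conditions and no p-value. Intervals are at 95% and cover counting error alone. The 2 lists of cell barcodes shared 39 entries, of which 28 had a hashtag in both experiments.

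All 8 genes were detected in single cells, at very different frequencies. In experiment 1 a UMI of Bax was seen in 93.2% of cells, of Mcl1 in 90.6%, of Bak1 in 80.9% and of Bcl2 in 74.0%. The 4 others were seen in fewer cells, Bcl2l11 in 30.3%, Bcl2l1 in 27.3%, Pmaip1 in 22.5% and Bbc3 in 9.63%. Experiment 2 gave the same order for the top 4 genes, with 94.0% for Bax, 90.1% for Mcl1, 76.1% for Bak1 and 70.7% for Bcl2. These shares move with depth. After each cell was thinned to 3000 UMIs (8676 and 8235 cells) they fell to 40.6% and 44.4% for Bax, 24.8% and 25.9% for Bcl2, and 1.29% and 1.97% for Bbc3. The B-cell gene Cd79a was seen in 0.104% and 0.208% of thinned cells outside the B-lineage-like cluster. Free RNA of a gene depends on its own amount in the pool, and only 80 cells, all of experiment 2, were B-lineage-like. The Cd79a shares therefore do not gauge free RNA of the 8 genes, and no cell class known to lack these genes was at hand.

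Among the 8 genes, Bcl2 had the highest ratio of variance to mean in its counts from cell to cell. At equal relative variation this ratio is larger for a gene with a higher mean, so it does not rank variation relative to level. Mean counts in thinned cells were 0.343 and 0.362 for Bcl2 and 0.0159 and 0.0186 for Bbc3. In the thinned cells the variance of Bcl2 counts was 1.48 times their mean in the first experiment and 1.61 times in the second, where counting error alone gives a ratio near 1. The other 7 genes lay between 1.02 (Pmaip1) and 1.19 (Bcl2l11) in experiment 1 and between 0.974 (Bcl2l1) and 1.22 (Pmaip1) in experiment 2. Unthinned, the median cell held 2 Bcl2 UMIs in both experiments, 19.0% and 23.9% of cells held at least 5, and the highest cell held 25 and 33.

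The first comparison asked how far each gene's level differed between the hashtags of an experiment. UMIs were summed over the cells of a hashtag and expressed as CPM, and the highest hashtag was set against the lowest. In experiment 1, 4 of the 8 genes differed at least 2-fold (Bcl2, Bcl2l1, Bcl2l11 and Bbc3), against 10.7% of all 8767 genes tested. In experiment 2, 4 of the 8 did (Bcl2, Bcl2l11, Pmaip1 and Bbc3), against 17.2% of 8766 genes. The median ratio of the genes was 1.72 and 1.99, beside 1.31 and 1.38 over all genes tested. Bbc3, at a mean of 4.54 CPM in experiment 1, was under the 5 CPM asked of the genes in that background. Choosing the highest and the lowest of 8 hashtags widens every such ratio, for these genes and for the background, and most where counts are few. The intervals of these ratios treat the 2 hashtags as fixed and do not allow for that choice. In sums over a hashtag, a change in the mix of cells and a change in level within cells cannot be told apart.

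**Figure D1:**
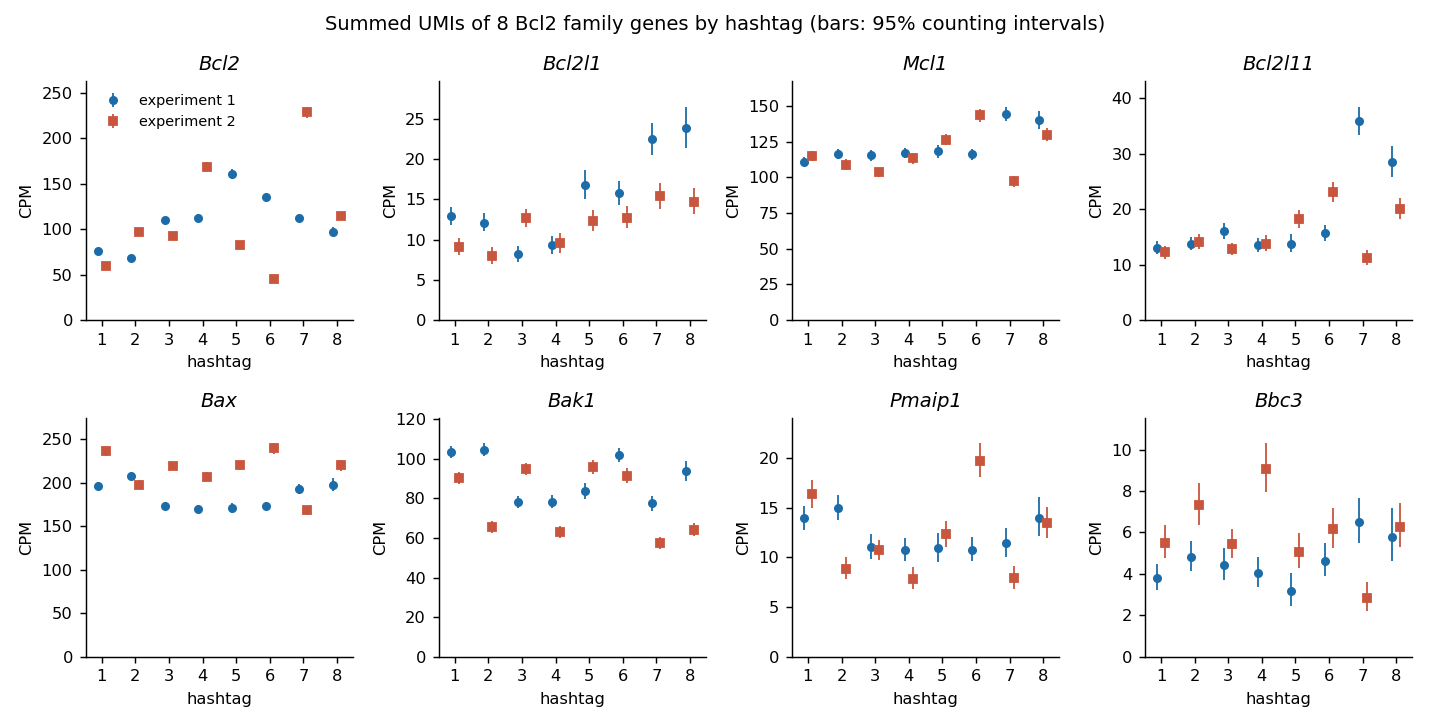
Summed UMIs of each gene in CPM (vertical axis) for hashtags 1 to 8 (horizontal axis) of experiment 1 (circles) and experiment 2 (squares), with 95% counting intervals as bars. Bcl2 reached 228.8 CPM in hashtag 7 of experiment 2, and Bcl2l11 stood highest in hashtags 7 and 8 of experiment 1.

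Among the survival genes, Bcl2 had the widest range in experiment 2. Its level in experiment 1 ran from 68.8 CPM in hashtag 2 over a median of 110.8 to 160.9 in hashtag 5, a ratio of 2.34 (interval 2.22 to 2.47). Hashtags 3, 7 and 4, at 109.7, 111.9 and 112.6 CPM, did not differ beyond counting error, and without hashtag 5 the ratio was 1.97. The range in experiment 2 was from 45.5 CPM in hashtag 6 over 94.8 to 228.8 in hashtag 7, a ratio of 5.03 (4.72 to 5.35) that was 3.71 without hashtag 7. Hashtags 7 and 4 (168.7 CPM) stood above the other 6 of experiment 2, none of which exceeded 114.4 CPM. The same 2 hashtags had the highest sums of the 10 T-lineage markers, 1640 and 1731 CPM against 200.9 to 748.7 in the others. They also had the highest sums of the 10 innate lymphoid markers, 2804 and 3105 CPM against 665 to 2148. Hashtag 7 had the highest share of T-lineage-like cells, 55.1%, and hashtag 8 that of innate lymphoid-like cells, 4.09%. The part of these cells in the Bcl2 range was not tested. Within T-lineage-like cells Bcl2 ran from 142.2 to 355.6 CPM over the 8 hashtags of experiment 2 and from 121.9 to 314.7 CPM in experiment 1. That class joins 2 clusters in each experiment, and in experiment 1 cluster 10 (122.6 CPM, 868 cells) lay almost wholly in hashtags 3 and 4. Within cluster 8 of experiment 1 (292.3 CPM) the 8 hashtags ran from 202.9 to 315 CPM, and within cluster 5 of experiment 2 the 7 hashtags with 20 or more cells ran from 141.7 to 355.7 CPM.

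Bcl2l1, whose product Bcl-xL is a survival protein like Bcl2, had another order of hashtags. In experiment 1 it ran from 8.15 CPM in hashtag 3 over a median of 14.3 to 23.9 in hashtag 8, a ratio of 2.93 (2.48 to 3.46). Hashtags 7 (22.4 CPM) and 8 lay above the other 6, with overlapping intervals between them. Experiment 2 gave 7.98 CPM in hashtag 2 as the lowest, 12.5 as the median and 15.4 in hashtag 7 as the highest (ratio 1.93, 1.63 to 2.29). Mcl1, the gene of a short-lived survival protein, was the steadiest of the 3, with 110.9, 116.6 and 144.3 CPM as lowest, median and highest in experiment 1 (ratio 1.30) and 97.1, 114.1 and 143.3 in experiment 2 (ratio 1.48). In experiment 1 only hashtags 7 and 8 (144.3 and 140.1 CPM) stood out for Mcl1, since the other 6 lay between 110.9 and 118.1 CPM.

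The genes of the pore formers stayed under 2-fold in both experiments. Bax in experiment 1 lay below the median ratio of all genes tested (1.31 and 1.38 in experiments 1 and 2), and their other ratios lay above it. Bax ran from 169.8 CPM over a median of 182.9 to 207.0 in experiment 1, a ratio of 1.22 (1.18 to 1.26), below the median of all genes. Its lowest, median and highest levels in experiment 2 were 168.2, 219.4 and 239.1 CPM (ratio 1.42, 1.37 to 1.48). Hashtag 7 was lowest for both Bax and Bak1 there, and the Bax interval of hashtag 7 did not overlap that of any other hashtag of experiment 2. Bak1 ran from 77.4 over 88.6 to 104.4 CPM in experiment 1 (ratio 1.35). In experiment 2 it fell into a low set, hashtags 7, 4, 8 and 2 at 57.5 to 65.3 CPM, and a high set, hashtags 1, 6, 3 and 5 at 90.1 to 95.8 CPM, with a ratio of highest to lowest of 1.67 (1.56 to 1.78).

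Of the BH3-only genes, Bcl2l11 and Bbc3 differed at least 2-fold in both experiments and Pmaip1 only in experiment 2. These genes were scarcer than Bax and Bak1. Of all genes averaging 50 CPM or more, 5.54% and 9.54% differed at least 2-fold in experiments 1 and 2. The shares were 10.7% and 17.2% at 5 CPM or more. Bcl2l11, whose product Bim binds all the survival proteins, had 13, 14.7 and 35.9 CPM as lowest, median and highest in experiment 1, a ratio of 2.76 (2.47 to 3.10). Hashtags 7 (35.9 CPM) and 8 (28.5 CPM) were high and the other 6 lay between 13 and 16.03 CPM. The same hashtags had the highest sums of the 8 progenitor markers (698.5 and 715.3 CPM, others 446.2 to 661.7) and of the 8 erythroid or megakaryocyte markers (3312 and 3273 CPM, others 663.4 to 2582), and the part of these cells was not tested. Of the 1155 cells of unnamed cluster 7, led by Capg, Rgs1 and Id3, 785 were in hashtag 7 and 345 in hashtag 8. Bcl2l11 stood at 45.3 CPM in that cluster and between 7.59 and 22.0 in the others of experiment 1. Without cluster 7, hashtags 7 and 8 had 19.5 and 16.8 CPM and the ratio was 1.498, under 2-fold, a comparison chosen after seeing the data. Mcl1 and Bcl2l1, also high in these hashtags, stood at 154.0 and 23.9 CPM in the cluster. Leaving out clusters named as a class other than progenitor or T-lineage, which keeps cluster 7, gave a Bcl2l11 ratio of 3.01. In experiment 2 Bcl2l11 ran from 11.3 CPM in hashtag 7 over 13.96 to 23.1 in hashtag 6, a ratio of 2.05 (1.77 to 2.38) that fell to 1.77 without hashtag 6, to 1.89 without hashtag 7 and to 1.91 without those clusters.

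Pmaip1, a BH3-only gene induced by p53, was even across experiment 1, at 10.8, 11.2 and 15.01 CPM as lowest, median and highest (ratio 1.40). In experiment 2 it ran from 7.84 CPM in hashtag 4 over 11.5 to 19.7 in hashtag 6, a ratio of 2.51 (2.14 to 2.97). Hashtag 6 also had the highest sum of the 12 granulocyte or monocyte markers, 12558 CPM against 222 to 8166 in the others, and the highest share of cells in clusters named as another class, 31.2% against 9.44 to 28.3%. Without those clusters the Pmaip1 ratio was 2.07, without hashtag 6 it was 2.08, and as a mean of per-cell CPM it was 4.12. Dendritic-like cluster 8 had 53.7 CPM of Pmaip1, against 17.0 in granulocyte or monocyte-like cells. It held 118 of the 933 cells of hashtag 6 and 149 of the 988 of hashtag 5, where Pmaip1 was 12.3 CPM over all cells. The part of either cell class in the Pmaip1 range was not tested. Bbc3, another p53 target and the scarcest of the 8 genes, ran from 3.17 CPM (65 UMIs) over 4.54 to 6.49 in experiment 1, a ratio of 2.04 with a wide interval of 1.51 to 2.78. Its range in experiment 2 was from 2.85 CPM (67 UMIs) in hashtag 7 over 5.84 to 9.07 in hashtag 4, a ratio of 3.18 (2.42 to 4.24). Single hashtags carried these Bbc3 ratios, which were 1.70 without hashtag 5 of experiment 1 and 1.79 without hashtag 7 of experiment 2. Without hashtag 5 of experiment 1, and without hashtag 7 of experiment 2, 2 of the 8 genes remained at least 2-fold apart.

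**Figure D2:**
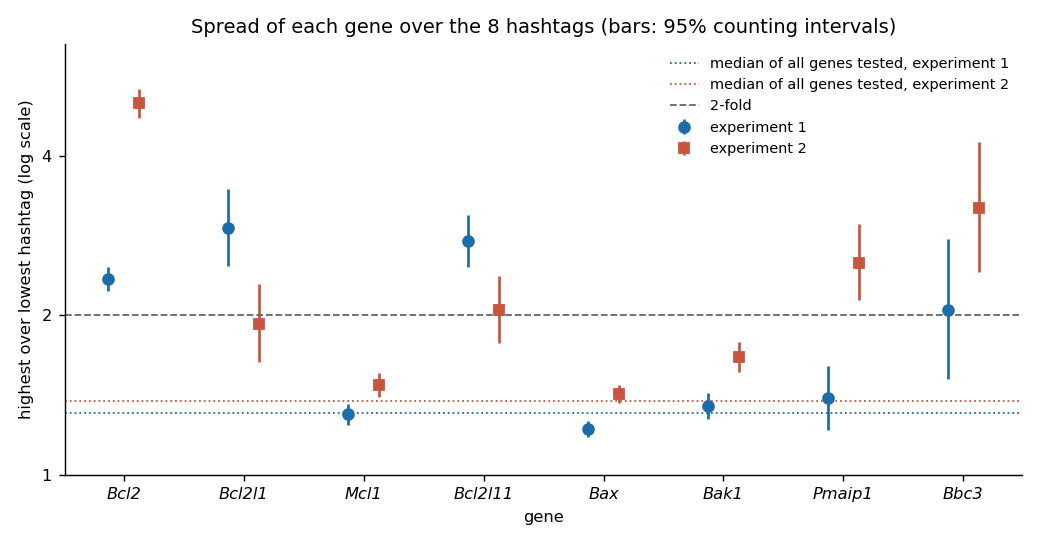
Ratio of the highest to the lowest of 8 hashtags on a log axis for each gene, in experiment 1 (circles) and experiment 2 (squares), with 95% counting intervals as bars, a dashed line at 2-fold and dotted lines at the median of all genes tested (1.31 and 1.38). Bcl2 in experiment 2 (5.03) lies above all other values, and Bax in experiment 1 (1.22) lies lowest.

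The genes also moved relative to one another. Over the 16 hashtags, with log2(CPM + 1) centred within each experiment, Pearson's r was computed for the 28 pairs as a description. The hashtags of an experiment share a library, and CPM values share a total. Cell classes, given below, differed in the levels of these genes and in their share of each hashtag. The part of this cell mix in the r values was not tested, and no share of all genes is given beside them. Bcl2 ran against Pmaip1 (r = -0.88, Spearman's rho -0.80), Bax (r = -0.85, rho -0.81) and Bak1 (r = -0.74, rho -0.76), and these signs were the same within each experiment (-0.86 and -0.88 for Pmaip1, -0.82 and -0.87 for Bax, -0.52 and -0.81 for Bak1). Without the 2 hashtags farthest from the Bcl2 median, r was -0.79, -0.72 and -0.64. Mcl1 and Bcl2l11 rose and fell together (r = 0.90, rho 0.72, 0.87 without the 2 farthest hashtags), with 0.97 and 0.94 within the experiments. In experiment 1 hashtags 7 and 8 were highest for both genes (Mcl1 144.3 and 140.1 CPM, Bcl2l11 35.9 and 28.5). The others lay between 110.9 and 118.1 CPM for Mcl1 and between 13 and 16.03 for Bcl2l11. Hashtags 7 and 8 held 785 and 345 of the 1155 cells of cluster 7. Bax and Pmaip1 also rose and fell together (r = 0.83, rho 0.89, 0.83 without the 2 farthest). Bcl2 and Bcl2l1 showed little relation (r = 0.18).

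**Figure D3:**
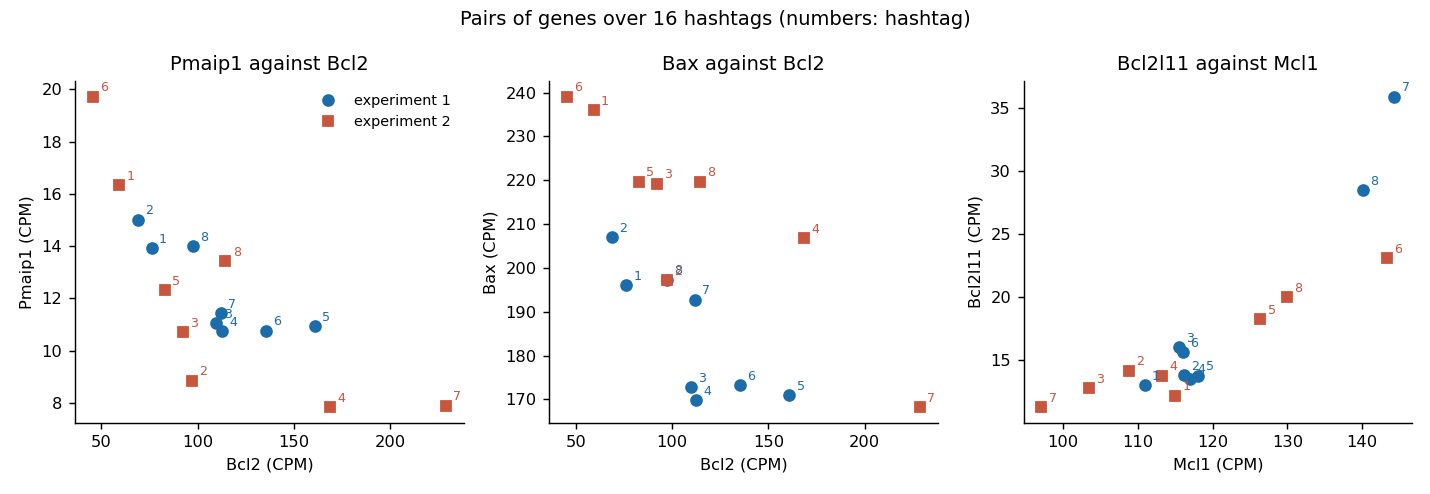
Levels in CPM of Pmaip1 and Bax against Bcl2 and of Bcl2l11 against Mcl1, with 1 point a hashtag (number) for experiment 1 (circles) and experiment 2 (squares). Hashtag 6 of experiment 2 has the lowest Bcl2 (45.5 CPM) and the highest Pmaip1 (19.7 CPM) and Bax (239.1 CPM), and hashtag 7 of experiment 1 is highest for both Mcl1 and Bcl2l11.

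The genes whose hashtag pattern was most like that of each member were taken from the 4965 genes that averaged 20 CPM or more in both experiments. For Bcl2 these were Lat (r = 0.97), the gene of an adaptor of T-cell receptor signalling, then Pcmtd1 and Prkch (both 0.96). For Bcl2l1 they were Zcchc11 (0.96), Ddx50 (0.95) and Cd37 (0.94), for Mcl1 Itgb2, Cytip and Ubl3 (all 0.94), and for Bcl2l11 Btg1, Limd2 and Man2b1 (0.95 each). Bax was closest to Otulin, Ndufa8 and Slc25a4 (all 0.94), and Bak1 to Psmg4 (0.96), Elovl1 and Pycard (both 0.95). Pmaip1 was closest to Gapdh (0.93), 1110008F13Rik (0.91) and Syngr2 (0.90). Bbc3 had no gene as close, with Tnrc6a and Cdc42se1 at 0.84 and Eno1 at 0.82. Tnrc6a and Cdc42se1 had 0.54 and 0.65 within experiment 1 and 0.96 and 0.95 within experiment 2. Bbc3 was the scarcest member, and the part of counting error in its r was not tested. For Bcl2l11, rho was 0.76 with Btg1, 0.67 with Limd2 and 0.93 with Man2b1. Taking the 3 highest of 4965 genes over 16 hashtags favours high r, and no chance level is given.

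The second comparison asked how the genes differed between cells of the same hashtag at different stages. Il2ra, the gene of CD25, comes on as progenitors enter the T-cell path, and cells were called positive with at least 1 Il2ra UMI after thinning to 5000 UMIs. Bcl2 was higher in Il2ra-positive cells in 8 of 8 hashtags of both experiments. Over all hashtags it stood at 148.2 CPM in 4058 positive cells and 68.7 in 4544 negative cells of experiment 1, a ratio of 2.16 (2.10 to 2.22), with log2 ratios of 0.34 to 1.82 in single hashtags. The values of experiment 2 were 180.5 and 73.4 CPM in 2574 and 5576 cells, a ratio of 2.46 (2.40 to 2.52), with log2 ratios of 0.28 to 2.07. Bcl2l1 was also higher in 8 of 8 hashtags of both, at 17.9 against 10.7 CPM (ratio 1.67) and 15.7 against 9.85 CPM (ratio 1.60), although with sums over the thinned UMIs of experiment 2 it was not higher in all 8. For comparison, 17.5% of all genes tested were higher in all 8 hashtags of experiment 1 and 14% in experiment 2.

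Pmaip1 went the other way. It was lower in Il2ra-positive cells in 8 of 8 hashtags of both experiments, at 8.87 against 15.2 CPM (ratio 0.58) in experiment 1 and 5.92 against 14.8 CPM (ratio 0.40) in experiment 2. Mcl1 was lower in 8 of 8 hashtags as well, by small amounts (ratios 0.96 and 0.86), and Bak1 in 8 of 8 and 6 of 8 (ratios 0.90 and 0.84). Of all genes, 11.3% and 12.8% were lower in all 8 hashtags of experiments 1 and 2. Bcl2l11, Bax and Bbc3 were lower in most but not all hashtags, 7, 6 and 6 of 8 in experiment 1 and 7, 5 and 7 of 8 in experiment 2. Clusters named as another cell class held 3.97% of positive and 16.1% of negative cells in experiment 1, and 4.43% and 24.0% in experiment 2. Without them Bcl2 and Bcl2l1 were again higher and Pmaip1 lower in all 8 hashtags of both experiments, and Mcl1 and Bak1 were no longer lower in all 8. Of the 25 other pathway genes listed, 5 were higher and 1 lower in all 8 hashtags of experiment 1, and 5 were higher and 4 lower in experiment 2. Il7r, the gene of the IL-7 receptor chain, was among the higher ones, at 28.3 against 5.50 CPM and 39.0 against 9.52 CPM.

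Bcl11b, whose product marks commitment to the T lineage, gave fewer positive cells, 615 in experiment 1 and 1008 in experiment 2, with as few as 16 and 9 in a hashtag. Bcl2 was higher in Bcl11b-positive cells in 8 of 8 hashtags of both experiments, at 217.2 against 97.6 CPM (ratio 2.23, 2.14 to 2.31) and 242.1 against 92.2 CPM (ratio 2.63, 2.54 to 2.71). In all hashtags 6.76% and 7.17% of all genes were higher. Bax and Pmaip1 were lower in 8 of 8 hashtags of experiment 1 (150.0 against 187.9 CPM, and 5.76 against 12.8 CPM), where 6.95% of genes were, and Bak1 in 8 of 8 of experiment 2 (51.1 against 82.7 CPM), where 9.6% were. These lower counts depended on the processing, while Bcl2 was higher in all 8 hashtags of both with a minimum of 2 UMIs, with thinned sums, with HTODemux calls and without clusters named as another class. In experiment 1 neither Bax nor Pmaip1 was lower in all 8 with a minimum of 2 Bcl11b UMIs, Bax was not without clusters named as another class, and Pmaip1 was not with thinned sums. Bak1 of experiment 2 was not lower in all 8 with thinned sums. Bcl2l1, higher throughout in Il2ra-positive cells, was higher in 7 of 8 and 3 of 8 hashtags by Bcl11b, with a ratio of 1.14 (0.98 to 1.31) in experiment 1 and the same 11.6 CPM in positive and negative cells of experiment 2 (interval of the ratio 0.87 to 1.14). Bcl11b-positive cells were shallower, with median UMIs of 20608 against 25306 and 18279 against 27730.

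Division was gauged from 16 mitosis genes, with a cell called positive at 5 or more of their UMIs after thinning. Bcl2l11 and Bbc3 were lower in mitosis-positive cells and Bcl2, Mcl1 and Bax were nearly level. Bcl2l11 stood at 14.99 against 23.6 CPM in experiment 1 (ratio 0.63, 0.59 to 0.68, lower in 8 of 8 hashtags) and 13.3 against 19.8 CPM in experiment 2 (ratio 0.67, 0.63 to 0.72, lower in 7 of 8). Bbc3 stood at 3.84 against 6.43 CPM (ratio 0.60) and 4.96 against 8.07 CPM (ratio 0.62), lower in 8 of 8 hashtags of both. In hashtag 4 of experiment 1 it was all but level, at a log2 ratio of -0.0024. Of all genes, 10.8% and 15.2% were lower in all 8 hashtags. Bbc3 of experiment 1 was under the 5 CPM asked of the genes in that share. With HTODemux, another way of calling hashtags, Bbc3 was not lower in all 8 hashtags of experiment 1 and Bcl2l11 was.

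Bcl2 was split 4 to 4 between the hashtags by the mitosis genes in both experiments, with the same overall ratio of 0.96. Bak1 was higher in mitosis-positive cells in 8 of 8 hashtags of experiment 2 (82.3 against 74.2 CPM, ratio 1.11) and in 6 of 8 of experiment 1, where 21.5% and 20.1% of genes were higher in all 8. Bax had ratios of 1.01 and 1.005. Mitosis-positive cells were deeper, with median UMIs of 27946 against 19902 and 30650 against 21111. Without clusters named as another class the Bcl2l11 difference of experiment 2 was smaller, at a log2 ratio of -0.24, while Bbc3 stood at -0.56 and was no longer lower in all 8 hashtags. With sums over the thinned UMIs, which leave few counts of Bbc3 in a hashtag, Bbc3 was not lower in all 8 hashtags of either experiment.

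**Figure D4:**
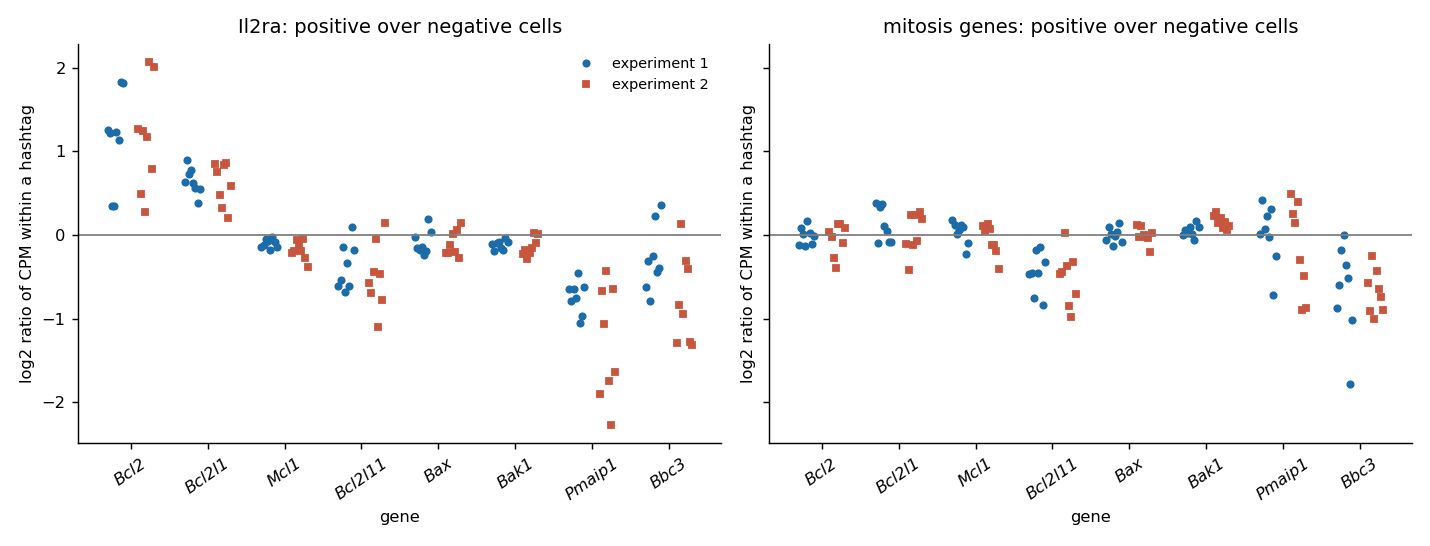
Log2 ratio of CPM in positive over negative cells of the same hashtag (vertical axis) for each gene, with 1 point a hashtag, for Il2ra and for the mitosis genes, in experiment 1 (circles) and experiment 2 (squares). All 16 points of Bcl2 and of Bcl2l1 lie above 0 for Il2ra, all 16 of Pmaip1 lie below, and all 16 of Bbc3 lie below 0 for the mitosis genes. The Bbc3 point of hashtag 4 of experiment 1 lies almost at 0 (-0.0024).

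The third comparison set the genes against cell classes. Cells of each experiment were clustered without the 8 genes, and clusters were named only from listed markers. Most cells of experiment 1 (6128) and many of experiment 2 (2909) lay in unnamed clusters, and some named cells are of kinds that the sort was meant to remove. Bcl2 was highest in innate lymphoid-like cells of both experiments, at 353.3 CPM in experiment 1 (interval 331.7 to 375.9, 164 cells) and 283.7 in experiment 2 (265.8 to 302.5, 179 cells). T-lineage-like cells followed, at 211.9 and 259.7 CPM. In experiment 2 it was 49.0 CPM in progenitor-like cells (range 22.9 to 112.3 over 8 hashtags), 38.3 in dendritic-like cells and 29.8 in granulocyte or monocyte-like cells. Stromal-like cells of experiment 2, at 31.2 CPM, are by their markers of the kind of OP9, a line that does not come from the transgenic mice.

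Dendritic-like cells of experiment 2 (594 cells) stood apart for 3 other members. Bcl2l11 was 52.9 CPM there (48.8 to 57.3), against 3.52 in mast or basophil-like cells (1.69 to 6.47) and no more than 26.1 in any other class. Pmaip1 was 49.8 CPM (45.8 to 54.0) against at most 17.0 in any other class, and its 8 hashtags ran from 12.6 to 105.0 CPM. Mcl1 was 237.5 CPM against 95.9 to 165.1 in the other classes. Among the clusters pooled as unnamed, cluster 1 (164 cells, led by Gzmc, Cd8b1 and Ifng) had 31.2 CPM of Bcl2l11 and 170.7 of Mcl1. Most of the dendritic-like cells came from 1 cluster. The 3 genes differed in the smaller dendritic-like cluster of 40 cells led by Xcr1, where Mcl1 was 338.7 CPM, Bcl2l11 8.21 (7 UMIs) and Pmaip1 1.17 (1 UMI). Of the genes that lead the larger cluster, 3 belong to the Bcl2a1 group of the same family, so their level there is not a result.

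Among classes of 50 or more cells, both pore formers had their highest level in granulocyte or monocyte-like cells, although the Bax intervals of B-lineage-like, dendritic-like and innate lymphoid-like cells of experiment 2 overlapped that of the top class. Bax stood at 255.5 and 276.3 CPM there, against lows of 177.1 in unnamed cells and 187.6 in T-lineage-like cells. Bak1 stood at 131.7 and 111.9 CPM, against 70.2 in innate lymphoid-like cells of experiment 1 and 56.7 in T-lineage-like cells of experiment 2. Bcl2l1 stood at 8.55 and 7.99 CPM in the same cells, its lowest values, and at 26.9 and 19.5 CPM in innate lymphoid-like cells, its highest, with intervals that overlapped those of other classes (for the highest, mast or basophil-like in experiment 1 and B-lineage-like in experiment 2). Bbc3 was 13.5 and 13.7 CPM in innate lymphoid-like cells and 18.2 CPM in stromal-like cells of experiment 2, against 4.30 and 3.76 in T-lineage-like cells. The unnamed cells of experiment 2 include cluster 1, where Bax was 434.2 CPM (415.6 to 453.5), above its level in every class. Bbc3 was 18.6 CPM in that cluster (14.9 to 22.9). Cells named by markers are a rebuilt grouping, and levels by class moved beyond the main interval in 56 of 312 values under other clustering settings.

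**Figure D5:**
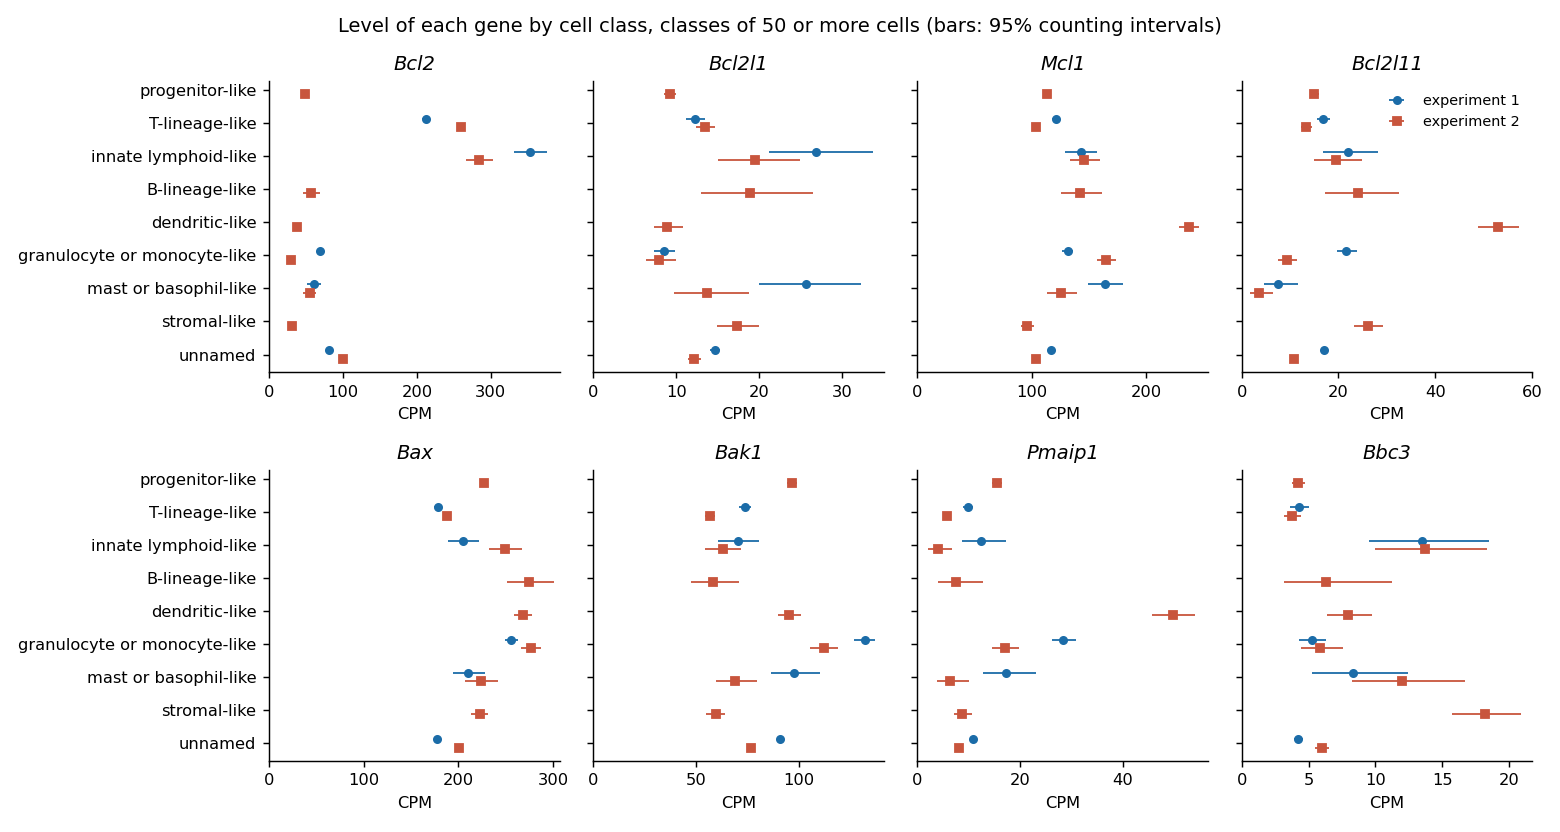
Level in CPM (horizontal axis) of each gene by cell class (vertical axis, classes of 50 or more cells) in experiment 1 (circles) and experiment 2 (squares), with 95% counting intervals as bars. Bcl2 is high in T-lineage-like and innate lymphoid-like cells, and Mcl1, Bcl2l11 and Pmaip1 are highest in dendritic-like cells of experiment 2.

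Between the experiments, the levels over all hashtagged cells were close. Bcl2 stood at 105.0 and 106.1 CPM (experiment 2 over experiment 1, 1.01, 0.99 to 1.03), Mcl1 at 119.8 and 116.2 and Pmaip1 at 12.3 and 12.2. Bax was higher in experiment 2 (185.5 and 214.8 CPM, ratio 1.16, 1.14 to 1.17), and Bcl2l1 (ratio 0.83), Bak1 (0.88) and Bcl2l11 (0.89) were lower, with Bcl2l11 at 1.006 without hashtag 7 of experiment 1. Bbc3 alone differed by 25% or more, at 4.54 and 5.95 CPM (ratio 1.31, 1.21 to 1.42), beside 6% of all 8770 genes that were higher by that factor and 31.2% that were lower by it. Without hashtag 4 of experiment 2 the Bbc3 ratio was 1.22. Without clusters named as another class Bbc3 was at 1.16 and Bcl2l11, at 0.76, was the one member that differed by that factor. Each experiment is 1 library, so library, culture time and mix of cultures cannot be told apart.

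Of the 25 other genes of the pathway listed, 4 differed at least 2-fold between hashtags in experiment 1 and 8 in experiment 2, counting those with at least 10 UMIs in the lowest hashtag (21 and 23 genes). Over all genes the share was 10.7% and 17.2%, and 20.5% and 28.1% with no minimum mean, which is how the listed genes were counted. Il7r ran from 7.65 CPM over 14.8 to 34.7 in hashtag 7 of experiment 1 (ratio 4.54, 3.91 to 5.29), and from 4.91 over 15.2 to 45.5 in hashtag 7 of experiment 2 (ratio 9.28, 7.77 to 11.2). Bcl2 was also highest in hashtag 7 of experiment 2. In hashtag 7 of experiment 1 Bcl2 stood at 111.9 CPM, near its median of 110.8, and it was highest in hashtag 5. Cdkn1a, the gene of the p53-induced cell-cycle inhibitor p21, ran from 40.6 over 48.0 to 83.3 CPM in experiment 2 (ratio 2.05, 1.90 to 2.22). Birc3, an inhibitor of apoptosis gene, had a ratio of 2.10 in experiment 2 (1.71 to 2.61).

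The survival genes of the Bcl2a1 group had the widest ranges of the listed genes. Bcl2a1b ran from 3.00 CPM in hashtag 2 over 21.4 to 118.6 in hashtag 6 of experiment 2 (ratio 39.5, 31.9 to 49.6), beside 29.1 for Bcl2a1a and 21.2 for Bcl2a1d, and the ratios of Bcl2a1b and Bcl2a1d in experiment 1 were 11.8 and 7.06. These genes are near-identical copies, so the split of counts among them is uncertain. They are among the genes that lead dendritic-like cluster 8 of experiment 2, which held 118 cells of hashtag 6 and 149 of hashtag 5. Hashtag 6 also had the highest granulocyte or monocyte marker sum, and the part of either cell class was not tested. Bok, a pore former related to Bax and Bak, was scarce, and its ratio of 4.98 in experiment 2 had an interval of 2.87 to 9.24, beside 2.14 (0.83 to 5.62) in experiment 1. The BH3-only gene Bmf had a ratio of 3.45 (1.92 to 6.42) in experiment 2 at 0.86 CPM. Without clusters named as another class the counts of 4 and 8 genes fell to 2 and 3. Hrk, another BH3-only gene, had 0 UMIs in both experiments.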

How the data were processed

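The authors deposited raw UMI counts per gene and cell and raw hashtag counts per cell, made with Cell Ranger 3.0.0 on GRCm38 (mm10) per the submitters' processing notes, from 10x Chromium v3 libraries per the labels' protocols. Whether hashtag counts are molecules or reads, the annotation and the barcode filter are not given in the sources used here. The members and lists were chosen with earlier results of these data known. Named were the 8 members, listed pathway genes at least 2-fold apart in either experiment, and the 3 genes most like each member.

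Cell and hashtag filters are given with the results (Python 3.11.15). CPM is a gene's summed count over the summed total per 1000000 UMIs. Intervals are exact 95% (Poisson for CPM, conditional binomial for ratios, Clopper-Pearson for shares), with a ratio given only for 10 or more UMIs in the lowest hashtag. Backgrounds used genes averaging 5 CPM or more. No interval covers variation between cultures or the choice of the highest and lowest hashtag.

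Clusters came from scanpy 1.11.5 (2000 variable genes, 30 components, 15 neighbours, Leiden resolution 0.5, members left out), named when 3 or more of a class's markers were among the 50 leading genes. Doublets between hashtags were dropped by the tag rule, and those within a hashtag were kept. The variance of thinned counts, the pairs of members, the promoter search, an alternative minimum of 10 mitosis UMIs and leaving out cluster 7 of experiment 1 were chosen after seeing the data. The ratio calculation was tested on simulated counts. Alternatives used HTODemux of Seurat 5.3.0, edgeR 4.0.16 (TMM) and DESeq2 1.42.0 size factors under R 4.3.3, other filters and clusterings, thinning, and leaving out each hashtag. The values of 1 listed pathway gene are not reported here.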

Additional observations from a re-analysis of the deposited data

Results flagged for a closer look

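None of the 8 members had a hashtag far from the other 7 of its experiment, judged by the gap to the nearest hashtag as a share of the whole range against Dixon's critical value for 8 values. Among the 58 values looked at, counting the other pathway genes, 3 had one, and chance alone flags about 1 in 20. Diablo stood at 71.4 CPM in hashtag 7 of experiment 1, where the next hashtag had 61.2. Birc3 stood at 10.0 CPM in hashtag 6 of experiment 2, next 7.24. Cdkn1a stood at 83.3 CPM in hashtag 4 of experiment 2, next 56.5. Hashtag 4 of experiment 2 was also the highest for Bbc3, at 9.07 CPM.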

How the results depend on the processing

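A ratio of highest to lowest hashtag is at least 1 by construction, so it cannot change sign. No member past the fold between experiments, or in 1 direction in all 8 hashtags, changed sign under the alternatives run. Ratios near 1 did, among them those between experiments of Bcl2 (0.88 without hashtag 7 of experiment 2), Bcl2l11 (1.006 without hashtag 7 of experiment 1), Mcl1 and Pmaip1 (1.02 and 1.14 as means of per-cell CPM), and Pmaip1 by the mitosis genes in experiment 2 (log2 ratio 0.17 without other classes). Of 159 values of the members' highest-to-lowest ratios, 140 stayed within the main interval and 19 moved, as did 18 of 192 marker-positive ratios and 19 of 64 ratios between experiments. The members at least 2-fold apart numbered 2 to 4 in each experiment when 1 hashtag was left out, against 4. The other pathway genes so apart (4 and 8) numbered 2 and 3 without clusters named as another class, 8 and 13 at a fold of 1.5, and 5 in experiment 2 with HTODemux calls, and 3 to 4 and 7 to 8 with 1 hashtag left out. The share of all genes 2-fold apart was 5.54% and 9.54% at a mean of at least 50 CPM and 20.5% and 28.1% with no minimum mean. The members 25% or more apart between experiments (1) numbered 0 without the 5% of cells with the most UMIs (Bbc3 at 1.23), 2 with cells thinned to 3000 UMIs, and 0 to 2 with 1 hashtag left out. Members in 1 direction in all 8 hashtags for Il2ra in experiment 1 (5) numbered 3 with thinned sums and 3 without other classes, and 5 to 6 with 1 hashtag left out (4 to 5 in experiment 2). For Bcl11b they were 3 to 5 in experiment 1 and 2 to 4 in experiment 2 with 1 left out, and in experiment 2 (2) they were 4 at a minimum of 2 UMIs and 1 with thinned sums. For the mitosis genes (2 in each) they were 1 in experiment 1 and 0 in experiment 2 with thinned sums, 1 in each with HTODemux calls, 1 in experiment 2 without other classes, and 2 and 2 to 3 with 1 left out. Thinned sums and left-out clusters rest on fewer counts; the cause of the other shifts was not tested. No paired analysis was possible because the labels pair no hashtags between experiments. Positive and negative cells were compared within each hashtag, as counts of hashtags with no test. Depth limits Bbc3 most, with 65 and 67 UMIs in its lowest hashtags.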
